A study of Mus musculus with 8 samples.

Results

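Transcripts of 74 genes of the RNA splicing machinery were followed on 8 Affymetrix arrays of 32Dcl3 cells. This mouse cell line consists of myeloid progenitors that depend on interleukin-3 (IL-3) and can mature to neutrophils when given granulocyte colony-stimulating factor, G-CSF. The set takes in every probe set whose annotation gives 1 gene symbol that begins with Sf3a, Sf3b, Snrp, U2af or Hnrnp, or with Srsf, Lsm or Prpf and a digit. It holds 197 of the 45037 probe sets of the table, and its genes are 74 of 18193. A further 19 probe sets carried such a symbol together with another and were left out. The cells had been transduced with the retroviral vector pMYs-FLAG-ASXL1-MT-IG, which carries FLAG-tagged mutant ASXL1 (ASXL1-MT), or with pMYs-IG, the same vector without it (mock). ASXL1 is a chromatin regulator mutated in myeloid neoplasms. Each culture was profiled in IL-3, given as 0 h, and after 2, 6 and 24 h in G-CSF, with 1 array per condition, so that the groups in order were ASXL1-MT cells and mock cells at each of the 4 time points. From which species the ASXL1 cDNA came is not stated, nor are the use of clones or pools, the removal of IL-3 on addition of G-CSF, and the use of separate cultures for the time points. The array probes therefore do not check the transgene: of 3 Asxl1 probe sets, the dim one was higher in ASXL1-MT cells at each time point and the other two were not.

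Introns are removed from pre-mRNA by the spliceosome, which is built from small nuclear RNAs (snRNAs) and their proteins. Sm proteins form a ring on most spliceosomal snRNAs, and LSm proteins form a related ring on the U6 snRNA. U2AF and the SF3a and SF3b complexes read the branch site and the 3' end of the intron, and many PRPF proteins join or drive the later steps. SR proteins bind exons and favour their inclusion, whereas hnRNPs coat nascent RNA and often act against it. Several SR protein genes limit their own output through alternatively spliced exons that send the transcript to decay. SF3B1, SRSF2, U2AF1 and PRPF8 can be mutated in human myeloid neoplasms, as ASXL1 is.

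Each deposited value was read as a log2 signal from which that probe set's median over the 8 arrays had been subtracted. A value therefore shows how an array stands against the others for the same gene and cannot be set against another gene's. Each gene was represented by 1 probe set, the one with the highest estimated level. The estimate is coarse: in 40 of the 49 members with several probe sets the highest level was tied after rounding, and probe set type and then ID decided. A probe set is called bright where its estimated level is 8 or more on the log2 scale. Of the 74 genes, 72 passed the filter on level and were tested. Snrpn, a mostly neuronal Sm protein, and Srsf12 were too dim. The median standard deviation over the 8 arrays was 0.23 for the 167 bright member probe sets, close to the 0.26 of all 13929 bright probe sets. Changes are given as log2 differences ± the standard error of 1 limma fit on vector and time point over all 8 arrays, with p-values adjusted by the Benjamini-Hochberg method over all 12953 genes tested and a threshold of 0.05. A G-CSF time point thus rests on 2 arrays a side, 1 from each culture, and the number of arrays limits the precision. Nothing says that the cultures are independent replicates, so the p-values may measure technical spread only. In RNA from whole cultures, fewer cells of a type and less RNA per cell cannot be told apart.

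At 2 h in G-CSF no member passed the threshold, against 1 of 12953 genes lower (0.00772%) and none higher (0%) among all genes tested. Of the members, 1 had an unadjusted p under 0.05. The lowest p belonged to Hnrnpk, an abundant RNA- and DNA-binding protein, which stood 0.28 ± 0.08 above IL-3 (adjusted p = 0.564). Next were Snrpe, a protein of the Sm ring, at 0.18 ± 0.08 (adjusted p = 0.662) and Hnrnpul1 at 0.23 ± 0.12 (adjusted p = 0.71). The median change of the members was 0.02, beside 0.00 over all genes tested. Between the cultures 36 of 72 members differed in sign, which was not counted over all genes.

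After 6 h the SR protein transcripts were the class with the most members past the threshold. In all, 9 of the 72 members had fallen relative to IL-3, where 7.36% of all genes tested had, and 1 had risen, where 9.99% of all genes had. Among the 7743 genes past a stricter filter on level, to which 71 of the 72 tested members belong, 11.1% were lower and 13.3% higher, so the number of lower members was near the share in genes of like level. Of the 9 members lower, 5 were SR protein genes, out of 9 tested: Srsf2, Srsf1, Srsf3, Srsf11 and Srsf6. The other four were Snrpa1, Prpf31, Prpf4 and Hnrnpab. The median change was -0.58 for SR genes, -0.12 for all members and 0.10 for all genes tested. With any 1 of the 8 arrays left out no member passed at 6 h, and none passed with no filter on dim genes. With only the genes past the stricter filter fitted and adjusted anew, 24 members passed. The share of all genes called in that fit is not given, so this count has no background beside it.

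Srsf2, an SR protein that binds exonic enhancers and is mutated in human myeloid neoplasms, had the largest change among the members called at 6 h. Its values at 0, 2, 6 and 24 h were 0.30, 0.21, -0.41 and -0.21 in ASXL1-MT cells and 0.21, 0.22, -0.46 and -0.41 in mock cells. Both 6 h arrays and both 24 h arrays lay below all 4 earlier arrays. The change was -0.69 ± 0.09 at 6 h (adjusted p = 0.0219) and -0.57 ± 0.09 at 24 h (adjusted p = 0.0217). Its other 2 bright probe sets had smaller changes, -0.51 and -0.52 at 6 h and -0.27 and -0.34 at 24 h, and neither was called at 24 h. Srsf3, the smallest SR protein and one that also takes part in mRNA export, read 0.35, 0.23, -0.33 and -0.30 in ASXL1-MT cells over the same time points and 0.26, 0.25, -0.34 and -0.23 in mock cells. Again the earlier and later arrays did not overlap, with changes of -0.64 ± 0.09 at 6 h (adjusted p = 0.0213) and -0.57 ± 0.09 at 24 h (adjusted p = 0.0177). The other 5 bright probe sets of Srsf3 ranged from -1.02 to -0.04 at 6 h and from -0.78 to 0.27 at 24 h. Of these 5, 2 were called lower at each time. Srsf11 was at 0.31, 0.17, -0.36 and -0.12 in ASXL1-MT cells and at 0.26, 0.12, -0.32 and -0.12 in mock cells, again lower on every 6 h and 24 h array than on any earlier one. It fell by 0.63 ± 0.08 at 6 h (adjusted p = 0.0189) and by 0.41 ± 0.08 at 24 h (adjusted p = 0.0294), while its other 3 bright probe sets, between -0.55 and -0.17 at 6 h and between -0.20 and 0.12 at 24 h, were not called.

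In the representative probe sets of Srsf1 and Srsf6 the low point was at 6 h and the 24 h values lay nearer to those in IL-3. Srsf1, among the first SR proteins described, read 0.12, 0.21, -0.46 and -0.04 at 0, 2, 6 and 24 h in ASXL1-MT cells and 0.12, 0.04, -0.58 and -0.09 in mock cells. Its other 5 bright probe sets stood between -0.28 and -0.13 at 6 h and none of them was called. The representative fell by 0.64 ± 0.09 at 6 h (adjusted p = 0.0216) and stood at -0.19 ± 0.09 at 24 h (adjusted p = 0.193). The step between 6 and 24 h, 0.46 ± 0.09, did not pass (adjusted p = 0.0613). Over the 6 probe sets of Srsf1 past the filter, the 24 h changes ran from -0.95 to -0.18, and 1 was called lower. For Srsf6 the values were 0.11, 0.16, -0.48 and -0.03 in ASXL1-MT cells and 0.21, 0.03, -0.36 and -0.15 in mock cells. That gave -0.58 ± 0.11 at 6 h (adjusted p = 0.04) and -0.25 ± 0.11 at 24 h (adjusted p = 0.182). The 4 probe sets of Srsf6 ran from -0.42 to -0.14 at 24 h, and 1 was called lower. Srsf9 passed at 24 h alone, at -0.44 ± 0.08 (adjusted p = 0.0246). Srsf4, Srsf5 and Srsf10 did not pass at either time, and Srsf4 changed least of the class at 6 h (-0.06 ± 0.11, adjusted p = 0.743).

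The 250 bases before and 50 after the start of Srsf2 and Srsf3, the SR genes lower at both times with the largest changes, are shown as RefSeq gives them for GRCm38.p6. Capitals mark every match, on either strand, to the E-box CACGTG, the ETS core CCGGAAG, the box CCAAT, the GC box GGGCGG or the letters TATAAA. These common promoter motifs were chosen after the changes were known. Overlapping matches run together.
Srsf2, chr11:116853045-116853344, minus strand: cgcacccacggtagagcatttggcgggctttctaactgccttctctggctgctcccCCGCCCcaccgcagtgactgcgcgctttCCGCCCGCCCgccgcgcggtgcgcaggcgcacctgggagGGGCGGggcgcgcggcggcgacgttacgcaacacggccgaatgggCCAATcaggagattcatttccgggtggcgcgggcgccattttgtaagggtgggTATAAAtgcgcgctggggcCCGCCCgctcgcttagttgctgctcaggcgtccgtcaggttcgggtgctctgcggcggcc
Srsf3, chr17:29032410-29032709, plus strand: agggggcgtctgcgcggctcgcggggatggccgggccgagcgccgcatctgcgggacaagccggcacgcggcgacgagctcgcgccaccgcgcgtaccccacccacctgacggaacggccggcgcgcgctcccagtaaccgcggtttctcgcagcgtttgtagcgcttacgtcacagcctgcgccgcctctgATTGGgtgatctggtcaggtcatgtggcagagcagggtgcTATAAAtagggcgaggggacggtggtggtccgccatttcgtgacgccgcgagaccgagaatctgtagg

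Both promoters hold TATAAA shortly before the start and 1 CCAAT box, and that of Srsf2 holds 5 GC boxes. A promoter was found for 64 of the 74 members. Counting a gene if any of its promoters had a match, TATAAA was in 9.38% of these 64, in 3 of the 9 members lower at 6 h (the third is Hnrnpab) and in 15.7% of the 27025 genes with a promoter in the table. GGGCGG was in 68.8% of the members and in 38.2% of all genes. The other shares, in members and in all genes, were 51.6% and 41.1% for the CCAAT box, 29.7% and 9.93% for the ETS core, and 10.9% and 8.09% for the E-box. Of the 9 members lower at 6 h, 0 had an E-box in this window. These are matches of letters and were not tested.

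Outside the SR class, Prpf31, which links particles within the tri-snRNP, read 0.21, 0.28, -0.21 and -0.72 at 0, 2, 6 and 24 h in ASXL1-MT cells and 0.30, 0.30, -0.42 and -0.80 in mock cells. It was thus lower at 6 h than before and lower again at 24 h in each culture, by -0.57 ± 0.11 (adjusted p = 0.0401) and -1.01 ± 0.11 (adjusted p = 0.0098) against IL-3. Prpf4, another tri-snRNP protein, stood at 0.40, 0.42, -0.04 and -0.21 in ASXL1-MT cells and at 0.32, 0.04, -0.29 and -0.36 in mock cells. Its changes were -0.53 ± 0.11 at 6 h (adjusted p = 0.0451) and -0.65 ± 0.11 at 24 h (adjusted p = 0.0215), and its 2 h value in mock cells lay close to its 6 h value in ASXL1-MT cells. Hnrnpab, an hnRNP of the A/B family, was the 1 of 19 hnRNP genes to pass at 6 h. It read 0.31, 0.34, -0.21 and -0.25 in ASXL1-MT cells and 0.21, 0.31, -0.28 and -0.24 in mock cells, with -0.50 ± 0.08 at both 6 h (adjusted p = 0.0288) and 24 h (adjusted p = 0.0196). The other 5 bright probe sets of Hnrnpab ranged from -0.77 to 0.03 at 6 h, with 1 called lower. At 24 h they ranged from -0.67 to 0.01, with 2 called lower.

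Lsm10, which belongs to the U7 snRNP that trims histone mRNAs and not to the spliceosome, was the 1 member higher at 6 h. It stood at -0.20, -0.24, 0.22 and 0.16 at 0, 2, 6 and 24 h in ASXL1-MT cells and at -0.16, -0.22, 0.30 and 0.18 in mock cells. Every 6 h and 24 h array was above every earlier one, by 0.44 ± 0.08 at 6 h (adjusted p = 0.0334) and 0.35 ± 0.08 at 24 h (adjusted p = 0.0381). Lsm11, its partner in the U7 ring, was not past the threshold (-0.14 ± 0.19 at 6 h). The 6 h change of Lsm10 missed the threshold with arrays centred on their medians (0.38, adjusted p = 0.0512) and with quantile normalization (0.36, adjusted p = 0.0703). The largest 6 h changes that did not pass were those of Prpf40b, a dim gene, at -0.71 ± 0.19 (adjusted p = 0.0807), Hnrnpa1 at -0.65 ± 0.33 (adjusted p = 0.259) and Sf3b1 at -0.51 ± 0.12 (adjusted p = 0.0546).

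**Figure D1:**
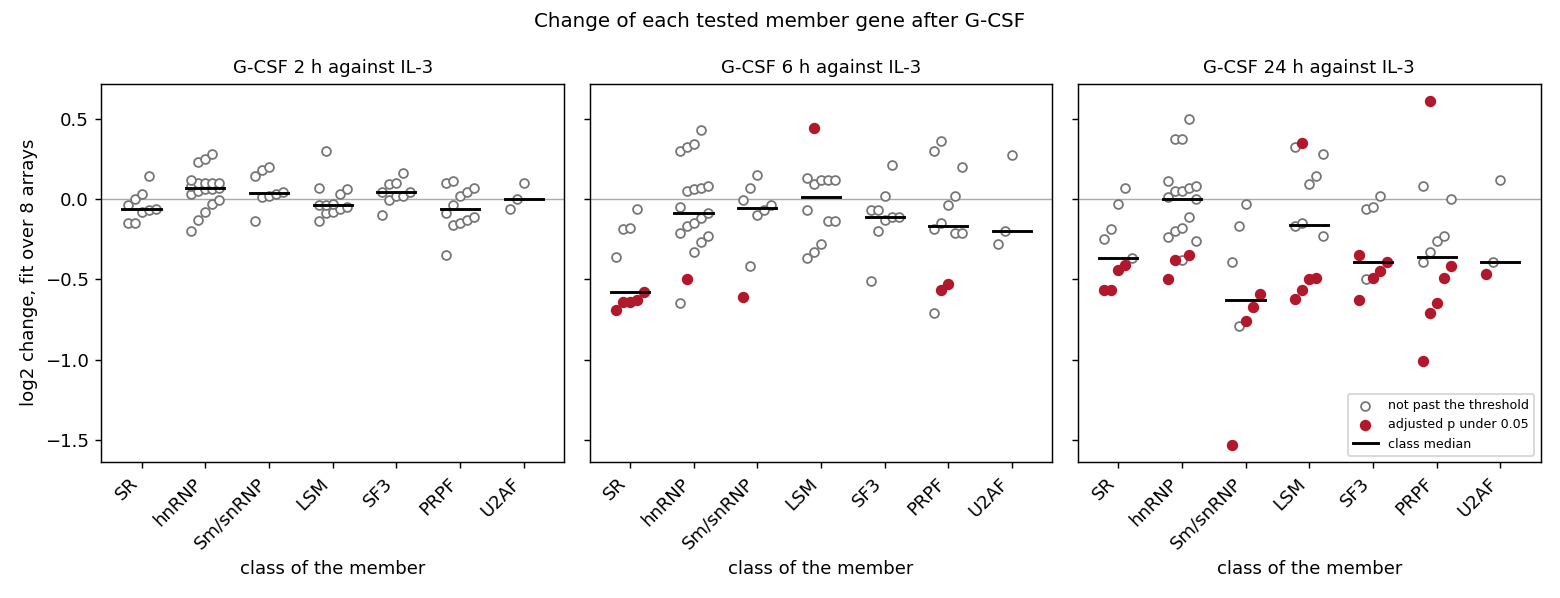
Log2 change of each of the 72 tested member genes at 2, 6 and 24 h of G-CSF against IL-3, by class. Filled points passed an adjusted p of 0.05 in limma and bars are class medians. No point is filled at 2 h, 5 of 9 SR genes are at 6 h, and at 24 h filled points appear in all 7 classes.

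The step from 2 to 6 h was tested as well. Against 2 h, 8 members were lower at 6 h (6.13% of all genes tested, 9.36% of those past the stricter filter) and 1 was higher (9.4% and 12.8%). The count of lower members was near that of genes of like level, and no member passed with any 1 array left out or with no filter. The members lower were Srsf2, Srsf1, Snrpa1, Prpf31, Srsf3, Hnrnpab, Hnrnpk and Srsf11, and the one higher was Lsm10. Hnrnpk, which had the lowest p at 2 h, read 0.15, 0.47, -0.13 and -0.08 at 0, 2, 6 and 24 h in ASXL1-MT cells and 0.08, 0.32, -0.17 and -0.18 in mock cells. It was highest on the 2 h arrays and 0.55 ± 0.08 lower at 6 h than at 2 h (change -0.55, adjusted p = 0.0274). The comparisons share their 6 h arrays, so their lists are not independent.

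**Figure D2:**
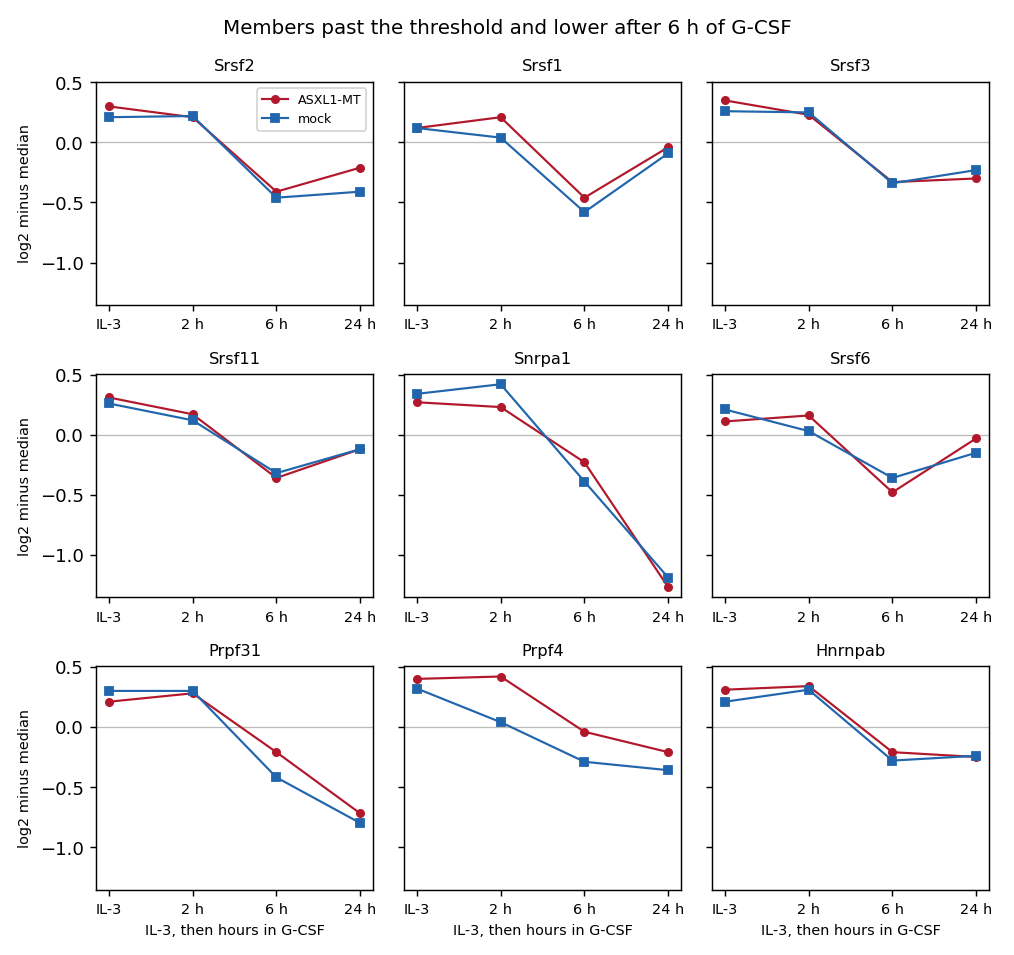
Values of the 9 members lower at 6 h on the 8 arrays, as log2 minus the median over arrays (y axis), in IL-3 and after 2, 6 and 24 h of G-CSF (x axis, not to scale), with circles for ASXL1-MT cells and squares for mock cells. Srsf1 and Srsf6 are lowest at 6 h, while Snrpa1 and Prpf31 are lowest at 24 h.

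After 24 h each of the 7 classes had at least 1 lower member, though the count of lower hnRNPs was near the share in genes of like level. Of the 72 members, 26 were lower than in IL-3, where 12% of all genes tested were, and 2 were higher, where 14.9% of all genes were. Among the genes past the stricter filter 18.5% were lower and 19.7% higher. The median change of the members was -0.25, beside 0.09 for all genes tested. In both cultures 47 of 72 members were lower, but this was not counted over all genes, so the number has no background beside it. Of the 26 members lower at 24 h, 7 had also been lower at 6 h (Srsf2, Srsf3, Srsf11, Snrpa1, Prpf31, Prpf4 and Hnrnpab) and 19 had not passed then. The snRNP proteins had 4 of 8 members lower, the SF3 subunits 5 of 9, the PRPF proteins 5 of 12, the LSm proteins 4 of 12, the SR proteins 4 of 9, U2AF 1 of 3 and the hnRNPs 3 of 19. The number of members called, 28 in all, fell to 0 without the IL-3 array or the 24 h array of either culture, to 12 without a 2 h array of either and to 6 without a 6 h array of either. With no filter on dim genes 2 passed, Prpf31 and Snrpa1.

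Among the proteins of the Sm ring and of the U1 and U2 particles, all 8 tested members lay below IL-3 at 24 h, with a median of -0.63. So did 44.5% of all genes tested and 48.1% of those past the stricter filter. The 8 include Snrpe at -0.03 ± 0.08 and Snrpg at -0.17 ± 0.13. Snrpa1, a protein of the U2 particle, had the largest change of all members. Its values at 0, 2, 6 and 24 h were 0.27, 0.23, -0.23 and -1.27 in ASXL1-MT cells and 0.34, 0.42, -0.39 and -1.19 in mock cells. Each culture thus went down at 6 h and again at 24 h. The changes against IL-3 were -0.61 ± 0.12 at 6 h (adjusted p = 0.0399) and -1.53 ± 0.12 at 24 h (adjusted p = 0.0068), and the step from 6 to 24 h was -0.92 ± 0.12 (adjusted p = 0.039). All 3 of its probe sets were lower at 24 h, at -1.36, -1.33 and -1.53.

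Snrpd3, a core Sm protein, read 0.14, -0.05, 0.19 and -0.68 in ASXL1-MT cells and 0.05, 0.29, -0.08 and -0.65 in mock cells. Only the 24 h arrays stood apart, at -0.76 ± 0.17 (adjusted p = 0.0426). Snrpb, the SmB protein of the same ring, gave 0.11, 0.04, 0.04 and -0.52 in ASXL1-MT cells and -0.04, 0.04, -0.11 and -0.58 in mock cells, with -0.59 ± 0.09 at 24 h (adjusted p = 0.0167). Snrpc, a protein of the U1 particle that helps recognise the 5' splice site, was at 0.08, 0.01, 0.05 and -0.60 in ASXL1-MT cells and at -0.02, 0.13, -0.01 and -0.67 in mock cells. It was near its IL-3 level at 6 h (-0.01 ± 0.10) and lower at 24 h both against IL-3 (-0.67 ± 0.10, adjusted p = 0.0163) and against 6 h (-0.66 ± 0.10, adjusted p = 0.0436). Snrpb2, the partner of Snrpa1 in the U2 particle, had the second largest value of the class, -0.79 ± 0.20, but did not pass (adjusted p = 0.0574), and its cultures were apart in IL-3, at 0.12 in ASXL1-MT cells and 0.42 in mock cells. The ring proteins Snrpe (-0.03 ± 0.08), Snrpg (-0.17 ± 0.13) and Snrpf (-0.39 ± 0.14) did not pass either.

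The SF3a and SF3b subunits, which hold the U2 particle at the branch site, had no member past the threshold at 6 h and 5 at 24 h, with a median of -0.39. Sf3a1 changed most, with 0.03, 0.16, 0.10 and -0.73 at 0, 2, 6 and 24 h in ASXL1-MT cells and -0.03, 0.16, -0.06 and -0.53 in mock cells. Both 24 h arrays lay below all others, at -0.63 ± 0.12 against IL-3 (adjusted p = 0.0271). A second bright probe set of Sf3a1 had -0.24 at 24 h and was not called (adjusted p = 0.285). Sf3a3 fell by 0.49 ± 0.11 (adjusted p = 0.0409), Sf3b4 by 0.45 ± 0.08 (adjusted p = 0.0266), Sf3b3 by 0.39 ± 0.08 (adjusted p = 0.0354) and Sf3b5 by 0.35 ± 0.08 (adjusted p = 0.0441). The second bright probe set of Sf3b3 stood at 0.02 at 24 h (adjusted p = 0.93). Sf3b1, the largest SF3b subunit and the most often mutated of them in myelodysplastic syndromes, ran another course in its representative probe set. Its values were 0.02, 0.01, -0.56 and -0.01 in ASXL1-MT cells and 0.04, -0.16, -0.41 and 0.11 in mock cells. It was lowest on both 6 h arrays and back at its IL-3 value at 24 h (0.02 ± 0.12, adjusted p = 0.925), but neither the 6 h change nor the step of 0.53 ± 0.12 from 6 to 24 h passed (adjusted p = 0.0546 and 0.0765). The other bright probe sets of Sf3b1 changed by 0.11, -0.17 and 0.14 at 6 h, and none was called.

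The start region of Sf3a1 is given because it is the SF3 gene with the largest change at 24 h and had one of the 7 ETS cores found among the 22 members lower at 24 h that have a promoter in the table. That share was 31.8%, beside 29.7% of all members. Capitals mark the same motifs as before.
Sf3a1, chr11:4160104-4160403, plus strand: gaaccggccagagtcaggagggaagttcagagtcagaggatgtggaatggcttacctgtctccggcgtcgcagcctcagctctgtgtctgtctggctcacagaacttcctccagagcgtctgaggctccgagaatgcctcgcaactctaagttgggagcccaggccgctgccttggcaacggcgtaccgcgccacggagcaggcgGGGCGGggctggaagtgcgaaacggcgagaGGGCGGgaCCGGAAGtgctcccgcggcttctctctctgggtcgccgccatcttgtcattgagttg

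This window holds 1 ETS core at the start and 2 GC boxes, with no match to the other motifs.

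Among the PRPF proteins, Prpf31, Prpf19, Prpf4, Prpf38a and Prpf8 were lower at 24 h. Prpf19, the ubiquitin ligase at the head of the Prp19 complex, read 0.15, 0.00, 0.07 and -0.56 at 0, 2, 6 and 24 h in ASXL1-MT cells and 0.00, 0.07, -0.22 and -0.71 in mock cells. It was lowest on the 24 h array of each culture and fell by 0.71 ± 0.11 against IL-3 (adjusted p = 0.0208). Prpf38a, which joins the spliceosome for its activation, fell by 0.49 ± 0.08 (adjusted p = 0.0226). Prpf8, the large protein at the catalytic centre, was at -0.10, 0.06, 0.14 and -0.55 in ASXL1-MT cells and at -0.03, 0.03, 0.13 and -0.41 in mock cells. Its highest values were on the 6 h arrays, so that the change was -0.42 ± 0.09 against IL-3 (adjusted p = 0.0359) and -0.62 ± 0.09 against 6 h (adjusted p = 0.0433). With Snrpa1 and Snrpc it made up the 3 members lower at 24 h than at 6 h (2.86% of all genes tested, 4.18% of those past the stricter filter), and none was higher (3.2% and 4.61%), a count of lower members near that of genes of like level. No member passed for this step with any 1 array left out, and Snrpc stood at 0.50 with the mean of its 2 probe sets. Prpf18, a factor of the second catalytic step, went the other way, with -0.13, -0.37, 0.18 and 0.36 in ASXL1-MT cells and -0.16, -0.24, 0.13 and 0.56 in mock cells. It rose by 0.61 ± 0.11 at 24 h (adjusted p = 0.0234).

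The LSm genes lower at 24 h were Lsm2, Lsm6, Lsm1 and Lsm3. Lsm2, Lsm3 and Lsm6 are in both the nuclear ring on U6 and the cytoplasmic ring of mRNA decay, whereas Lsm1 is in the cytoplasmic ring. Lsm2 read 0.10, 0.27, -0.20 and -0.40 at 0, 2, 6 and 24 h in ASXL1-MT cells and 0.27, 0.16, -0.10 and -0.48 in mock cells, with -0.62 ± 0.11 at 24 h (adjusted p = 0.025). Lsm6 read 0.25, 0.10, -0.10 and -0.32 in ASXL1-MT cells and 0.28, 0.25, -0.11 and -0.28 in mock cells, with -0.57 ± 0.08 (adjusted p = 0.0174). Both were lower on each later pair of arrays from 2 h on. The change of Lsm1 was -0.50 ± 0.09 (adjusted p = 0.026) and that of Lsm3 -0.49 ± 0.09 (adjusted p = 0.0252). Lsm8, the subunit that marks the nuclear ring, had -0.17 ± 0.09 (adjusted p = 0.221), and the median of the class was -0.16.

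U2af1, the small U2AF subunit that reads the end of the intron, had 0.20, 0.19, -0.10 and -0.30 in ASXL1-MT cells and 0.10, 0.30, -0.16 and -0.34 in mock cells. Its 6 h and 24 h arrays were all below the earlier ones, but only the 24 h change passed (-0.47 ± 0.09, adjusted p = 0.0314; at 6 h -0.28 ± 0.09, adjusted p = 0.12). The large subunit U2af2 had -0.39 ± 0.18 at 24 h (adjusted p = 0.2), and its cultures were far apart in IL-3, at 0.32 in ASXL1-MT cells and -0.07 in mock cells.

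The hnRNPs had a median change of 0.00 at 24 h, and 3 of 19 passed, all lower. That count was near the shares lower among all genes tested (12%) and those past the stricter filter (18.5%). The 3 were Hnrnpab, Hnrnpc at -0.38 ± 0.09 (adjusted p = 0.042) and Hnrnpd at -0.35 ± 0.08 (adjusted p = 0.0427). A second bright probe set of Hnrnpd stood above IL-3, at 0.37. Hnrnpc binds uridine tracts in introns, and Hnrnpd, also known as AUF1, binds AU-rich elements of unstable mRNAs. By representative probe sets, the upper end of the class was held by Hnrnpul1 (0.50 ± 0.12, adjusted p = 0.0523), Hnrnpa2b1 (0.37 ± 0.10, adjusted p = 0.0605) and Hnrnpdl (0.37 ± 0.10, adjusted p = 0.0699), none of which passed. The 7 probe sets of Hnrnpdl ran from -0.64 to 0.37, however, and 2 were called lower. Hnrnph2, which had the smallest 6 h change of the class (-0.05 ± 0.28), was at 0.00 ± 0.28 at 24 h.

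**Figure D3:**
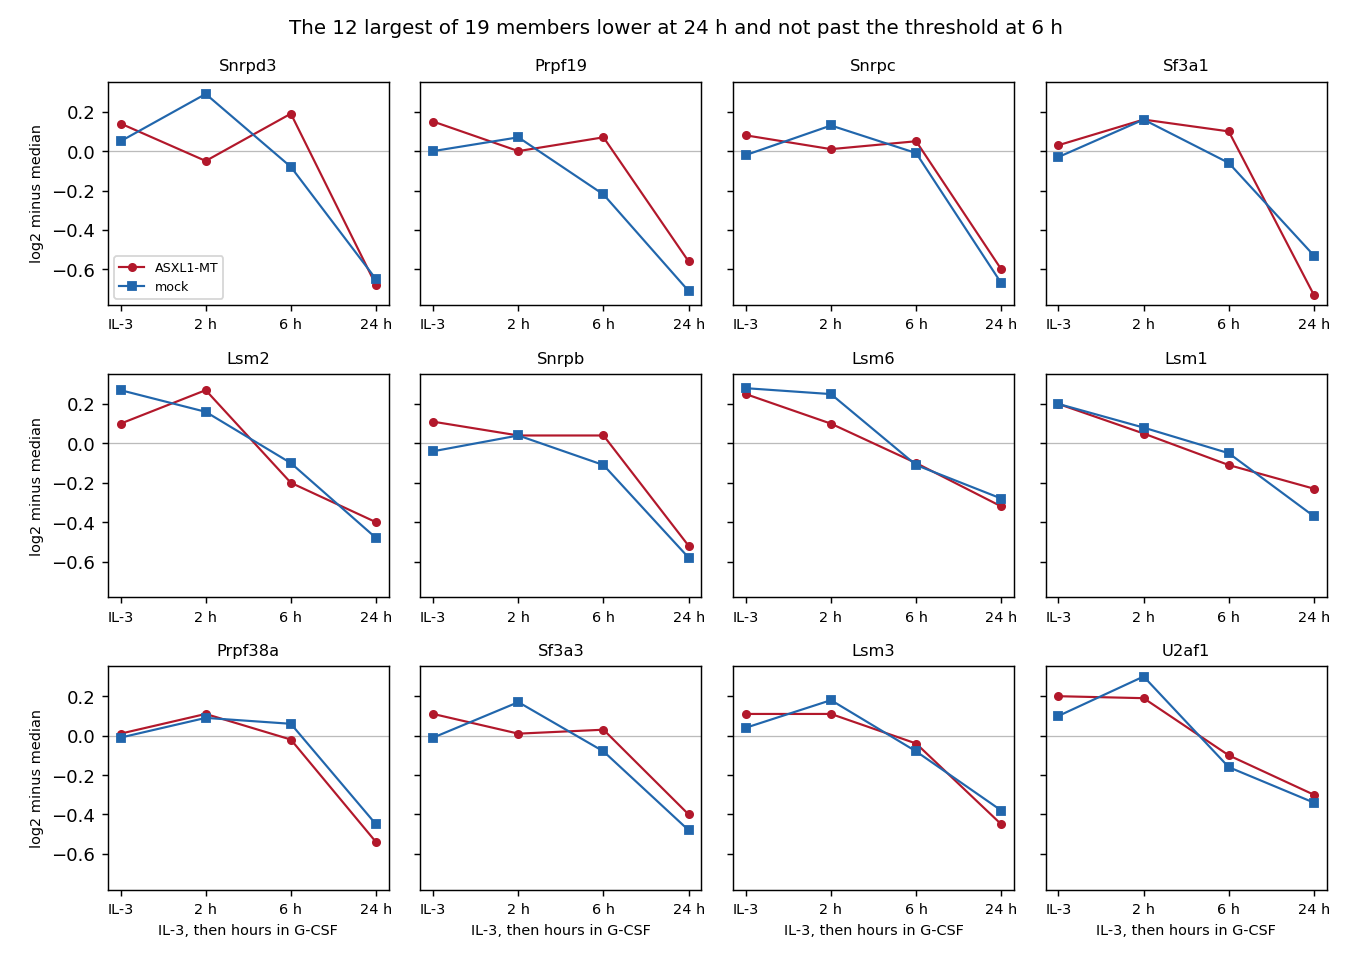
Values of the 12 members with the largest change among the 19 lower at 24 h and not past the threshold at 6 h, as log2 minus the median over arrays (y axis), in IL-3 and after 2, 6 and 24 h of G-CSF (x axis, not to scale), with circles for ASXL1-MT cells and squares for mock cells. In each panel both 24 h arrays are the lowest of their culture.

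Many members have several probe sets, 49 of 74 genes in all and up to 7 for 1 gene. Fitted as 188 probe sets past the filter, 39 were lower at 24 h, in 26 genes, and 3 were higher, in 3 genes (8.53% and 12.1% of all probe sets past the filter). These 26 genes are not the same as the 26 members lower in the fit of genes. Of those members, Hnrnpc, Hnrnpd, Sf3a3, Sf3b3, Snrpd3 and Prpf8 had no probe set called. Srsf1, Srsf6, Lsm12, Hnrnpdl, Sf3a2 and Snrpb2 had at least 1 called lower instead. The genes higher were Prpf18, Hnrnpul2 and Sf3b2, and Lsm10 was not called (adjusted p = 0.0616). No gene had probe sets called in opposite directions. At 6 h 15 member probe sets were lower, in 10 genes, and 0 were higher (4.97% and 6.23% of all). Of 48 genes with at least 2 probe sets past the filter, the probe sets were all below IL-3 at 24 h for 21, all above for 4 and of both signs for 23. Of the 26 members lower at 24 h, 17 had another bright probe set. In 9 of these at least 1 other was called lower too, and in 8 none was (Srsf2, Srsf11, Sf3a1, Sf3a3, Sf3b3, Sf3b4, Hnrnpc and Hnrnpd). All 9 members lower at 6 h had another bright probe set, and in 3 of them none was called (Srsf1, Srsf11 and Prpf4).

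Among the genes named above, the 4 probe sets of Srsf6 lay between -0.58 and -0.55 at 6 h, and the 2 of Prpf4 were at -0.53 and -0.55. Srsf1 was less uniform: its representative had -0.64 at 6 h and -0.19 at 24 h, while another bright probe set had -0.27 at 6 h and -0.95 at 24 h, past the threshold in the fit of probe sets (adjusted p = 0.0141). Which transcripts of Srsf1 each of them reads was not examined. For Lsm12 the representative was at 0.12 at 6 h and -0.15 at 24 h, and a second bright probe set was lower at both times (-0.67 and -0.66, adjusted p = 0.0353 and 0.0229). Hnrnpdl, an RNA-binding relative of Hnrnpd, had 7 probe sets between -0.64 and 0.37 at 24 h, of which 2 were lower (-0.47 and -0.64, adjusted p = 0.0365 and 0.0413) while its representative, at 0.37, was not past the threshold. The 4 probe sets of Sf3b1 lay between -0.51 and 0.14 at 6 h, and none passed. For Snrpc and Snrpd3 the other probe sets were dim and stood between 0.01 and 0.53 at 24 h, so that when a gene was given the average of its probe sets their 24 h changes were -0.07 and -0.11 and did not pass. With that average, 16 members passed at 24 h and 5 at 6 h.

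The genes that work with the splicing factors were read from lists whose genes are not members. Of 47 other core spliceosome genes tested, 12 were lower at 24 h (25.5%, beside 12% of all genes tested and 18.5% of those past the stricter filter) and 0 higher, with a median of -0.22. At 6 h 3 were lower (6.38%), below the 7.36% of all genes. The largest 24 h changes were those of Isy1 of the Prp19 complex (-0.98 ± 0.10, adjusted p = 0.00898), Phf5a of SF3b (-0.88 ± 0.10, adjusted p = 0.0109) and Eftud2 of the U5 particle (-0.77 ± 0.08, adjusted p = 0.00975). Txnl4a, another U5 protein, was lower already at 6 h (-0.76 ± 0.08, adjusted p = 0.0153). The regulators of splicing outside the member families were mixed, with 4 of 30 higher (13.3%, beside 14.9% of all genes) and 6 lower (20%) at 24 h. Syncrip, an hnRNP-like protein, fell by 1.04 ± 0.10 (adjusted p = 0.00819), while Mbnl2, a regulator of alternative exons, rose by 1.02 ± 0.09 (adjusted p = 0.00808).

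The next list holds genes that load Sm proteins onto snRNAs, and also Coil, Snupn, Phax and Tgs1, which handle snRNAs or snRNPs at other steps. Of 14 tested, 10 were lower at 6 h (71.4%, beside 7.36% of all genes tested) and 8 at 24 h (57.1%, beside 12%). None was higher, and the medians were -0.49 and -0.48. Coil, Snupn and Tgs1 are among the 10, and Coil and Snupn among the 8. Prmt5, which methylates Sm proteins, read 0.51, 0.41, -0.39 and -0.64 at 0, 2, 6 and 24 h in ASXL1-MT cells and 0.47, 0.39, -0.66 and -0.84 in mock cells, with -1.01 ± 0.10 at 6 h (adjusted p = 0.0153) and -1.23 ± 0.10 at 24 h (adjusted p = 0.00748). Its partner Wdr77 was lowest at 6 h, at 0.22, 0.42, -1.01 and -0.15 in ASXL1-MT cells and 0.13, 0.39, -1.27 and -0.13 in mock cells (-1.31 ± 0.10 at 6 h, adjusted p = 0.0121; -0.31 ± 0.10 at 24 h, adjusted p = 0.102). Gemin5, which picks out the snRNA, fell by 1.32 ± 0.17 at 6 h (adjusted p = 0.0199) and by 1.47 ± 0.17 at 24 h (adjusted p = 0.011). Smn1, the centre of the assembly complex, fell by 0.58 ± 0.08 at 6 h (adjusted p = 0.0202) and by 0.98 ± 0.08 at 24 h (adjusted p = 0.00687).

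The kinases that phosphorylate SR proteins had the highest median change of the 4 splicing lists at 24 h. Of 6 tested, 4 were higher at 24 h (66.7%, beside 14.9% of all genes tested) and 0 lower, with a median of 0.58, and 1 was higher at 6 h. Clk1 rose by 0.65 ± 0.14 at 24 h (adjusted p = 0.0403), Clk4 by 0.61 ± 0.08 (adjusted p = 0.0149), Clk2 by 0.60 ± 0.10 (adjusted p = 0.0234) and Srpk2 by 0.56 ± 0.09 (adjusted p = 0.0198), which was also higher at 6 h (0.42 ± 0.09, adjusted p = 0.0476). Clk3 and Srpk1 did not pass. Of 8 genes of mRNA decay that work with the cytoplasmic LSm ring none passed at either time, by the same limma test, and of 7 genes of nonsense-mediated decay 1 was lower at 6 h (Smg5, 14.3% of the list) and 2 at 24 h (Smg5 and Smg9, 28.6%).

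**Figure D4:**
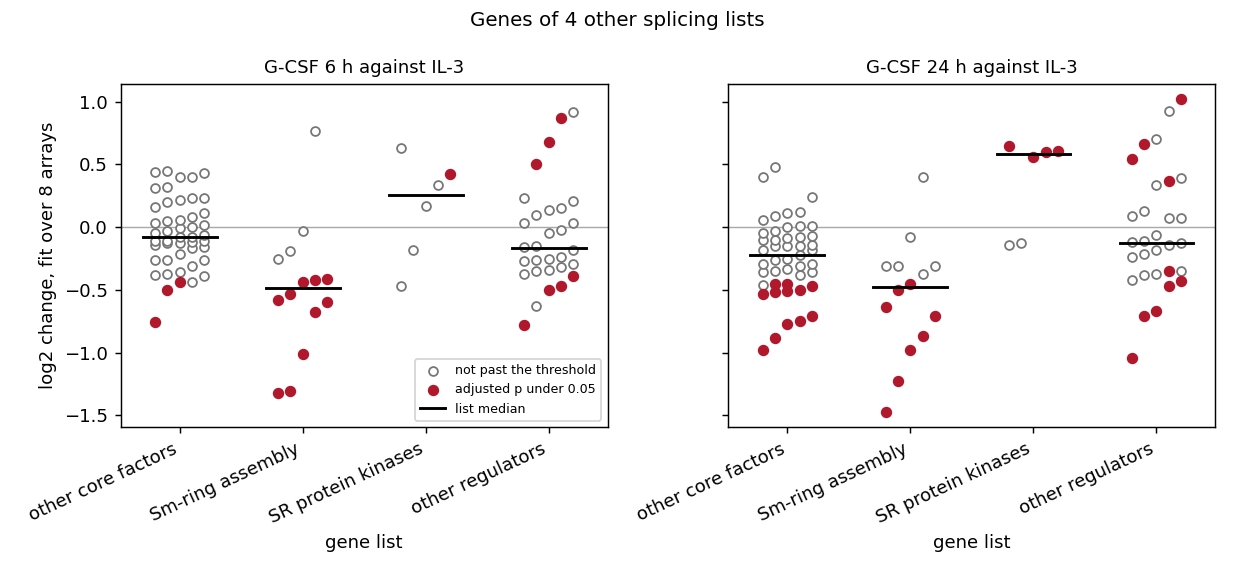
Log2 change at 6 and 24 h of G-CSF against IL-3 (y axis) of the genes of 4 other splicing lists. Filled points passed an adjusted p of 0.05 in limma and bars are list medians. The list labelled Sm-ring assembly also holds Coil, Snupn, Phax and Tgs1. In it 10 of 14 genes are filled and below 0 at 6 h, and among SR protein kinases 4 of 6 are filled and above 0 at 24 h.

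Genes outside splicing were also called at 6 and 24 h. Of 6 MYC-related genes 4 were lower at 6 h and 3 at 24 h. Myc itself was at 0.85, -1.07, -0.32 and 0.54 at 0, 2, 6 and 24 h in ASXL1-MT cells and at 0.69, -1.25, -0.64 and 0.32 in mock cells, and its 6 h change was -1.25 ± 0.08 (adjusted p = 0.0119). Myc was lowest at 2 h (-1.93 ± 0.08, adjusted p = 0.0611). From 2 to 6 h it rose by 0.68 ± 0.08 (adjusted p = 0.022), and at 24 h it did not pass (-0.34 ± 0.08, adjusted p = 0.0529). At 2, 6 and 24 h against IL-3, Srm changed by -0.17, -2.67 and -1.87 and Nolc1 by 0.02, -1.81 and -1.68. In the same order Odc1 changed by -0.44, -1.21 and -0.67, Ncl by 0.11, -0.22 and -0.68, and Npm1 by 0.11, -0.07 and -0.24. Of 7 proliferation genes 1 (14.3%) was higher (Mki67, 0.82 ± 0.11, adjusted p = 0.0136) and 1 lower (Mcm2, -0.49 ± 0.10, adjusted p = 0.0303) at 24 h. All 8 myeloid progenitor markers tested rose at 24 h, among them Elane (2.26 ± 0.14, adjusted p = 0.00582), and Cd34 and Kit were not bright. Of 5 mast cell and eosinophil markers tested 4 rose, with Prg2, which was not bright, up by 6.51 ± 0.47 (adjusted p = 0.00642), and of 4 macrophage markers 3 rose. Of 3 erythroid markers tested, Gata1 and Epor were higher at 6 h, by 1.14 ± 0.10 (adjusted p = 0.0122) and 0.79 ± 0.14 (adjusted p = 0.0355). At 24 h Gata1 stood at 0.09 ± 0.10 (adjusted p = 0.57), Epor was higher by 0.77 ± 0.14 (adjusted p = 0.0266) and Klf1 had -1.12 ± 0.12 (adjusted p = 0.0103). Of the marker genes of other cell types, 1 of 4 erythroid, 1 of 4 lymphoid and 1 of 5 fibroblast genes on the array were bright. Because the table is centred, no marker can be read as absent and no summed level can be given. The part of maturation, of a changed mix of cells or of these other genes in the members' changes was not tested.

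Between ASXL1-MT and mock cells no member passed the test. Over the 4 time points 0 of 72 members and 0 of all 12953 genes tested (0%) were called in limma. At an unadjusted p under 0.05 there was 1 member, Prpf4, at 0.21 ± 0.08 (adjusted p = 0.754). Lsm12 had 0.23 ± 0.11 (adjusted p = 0.777) and Prpf40b 0.28 ± 0.14 (adjusted p = 0.783). The median over the members was 0.02, beside 0.00 for all genes. The genes mutated in myeloid neoplasms were at 0.08 ± 0.07 (Srsf2), 0.02 ± 0.07 (U2af1), -0.03 ± 0.08 (Sf3b1) and -0.04 ± 0.06 (Prpf8).

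At single time points, with 1 array a side and no test, no member differed 2-fold between the cultures, while 11.2% of all genes tested did in IL-3, 11.3% at 2 h, 11.3% at 6 h and 11.2% at 24 h. Of the genes past the stricter filter, which hold 71 of the 72 members, 1.45% did in IL-3, 1.32% at 2 h, 1.12% at 6 h and 1.24% at 24 h. The members spanned -0.52 (Hnrnpr) to 0.41 (Prpf40b) in IL-3, -0.56 (Hnrnpa1) to 0.41 (Prpf40b) at 2 h, -0.22 (Hnrnpl) to 0.46 (Prpf40b) at 6 h and -0.31 (Snrpg) to 0.96 (Lsm7) at 24 h. The term for a different ASXL1-MT effect at 24 h was called for no member and no gene (0%), and 2 members had an unadjusted p under 0.05. Lsm7, a subunit of both LSm rings, had 0.90 ± 0.15 (adjusted p = 0.665): it read -0.11, 0.25, 0.02 and 0.65 in ASXL1-MT cells and -0.13, 0.11, -0.02 and -0.32 in mock cells, so that the cultures were close except at 24 h. Prpf40b had -0.59 ± 0.14 (adjusted p = 0.749), and Hnrnpa1, with the third lowest p, 0.93 ± 0.34 (adjusted p = 0.891). Srsf2 stood at 0.17 ± 0.15, U2af1 at 0.03 ± 0.17, Sf3b1 at -0.13 ± 0.20 and Prpf8 at -0.13 ± 0.14 (adjusted p = 0.994 to 0.995).

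**Figure D5:**
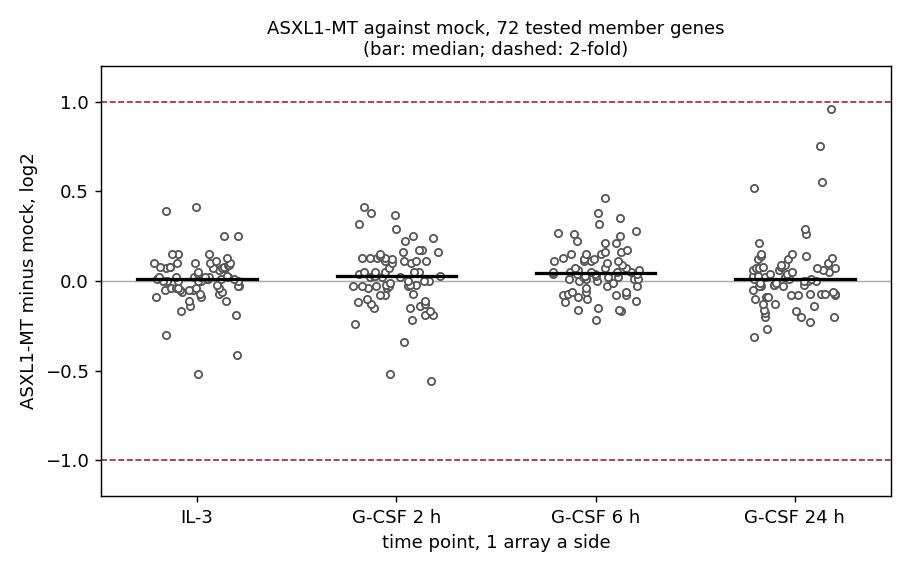
Difference between ASXL1-MT and mock cells on the log2 scale (y axis) for the 72 tested members at each time point, with 1 array a side. Bars are medians and dashed lines mark 2-fold. All members lie between the dashed lines at every time point.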

How the data were processed

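The values were deposited by the authors as 1 table of 45037 probe sets on 8 arrays. Per the labels' protocols, intensities were captured with MAS 5.0; the submitters' processing notes name RMA with no version. The log2 base of the deposited values was assumed, and the sources used here do not state the centring or scaling; every probe set's median over the arrays was within 5e-07 of 0. The protocol gives 3 µg of total RNA and the design text 5 µg.

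Levels, lost by the centring, were estimated from how finely each probe set's numbers were rounded. Of the probe sets 34945 carried 1 symbol, 932 several and 9160 none. Each gene took the probe set of highest rounded level (ties by type, then ID), and 12953 genes whose second-highest array reached 6.26 were tested (7743 reached the stricter 8.3) with limma 3.58.1 in R 4.3.3, by lmFit and eBayes on time point and vector (3 residual degrees of freedom; 2 for the 24 h term), checked on simulated data. Alternatives were the filter, scaling, probe set rule, prior, terms and each array left out. Genes named were the 12 largest calls at 6 and 24 h, at most 8 in other comparisons, class extremes at 6 h and 4 genes mutated in myeloid neoplasms; others were chosen after their values were seen. The members and lists were chosen with earlier results of these data known. Promoters are RefSeq's, GRCm38.p6.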

Additional observations from a re-analysis of the deposited data

Results flagged for a closer look

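In 2 members the cultures moved in opposite directions at 24 h by at least 0.25 each, a floor set after seeing the values. Hnrnpa1 changed by 0.34 in ASXL1-MT cells and by -0.32 in mock cells, and Hnrnph2 by 0.48 in ASXL1-MT cells and by -0.48 in mock cells. The difference was not tested at this time point alone, with 1 array per condition. No member met this floor at 2 or 6 h, and the count was not made over all genes.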

How the results depend on the processing

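Of 10 members called at 6 h against IL-3, 9 against 2 h, and 28 at 24 h against IL-3 and 3 against 6 h, the counts moved by over 1.5 times as follows. With no filter on dim genes they were 0, 0, 2 and 0, in the order 6 h against IL-3, 6 h against 2 h, 24 h against IL-3 and 24 h against 6 h, and with only the 4 arrays of the time points compared 0 in each. The stricter filter gave 24, 24 and 23 in all but 24 h against IL-3, and a prior with a trend on level 19, 21 and 14. The shares of all genes called under these alternatives are not given. The mean of all probe sets gave 5 at 6 h, 16 at 24 h and 1 for 24 h against 6 h. For 24 h against 6 h, probe sets gave 0, centred arrays 5, a fit with no vector term 8 and quantile normalization 1. Leaving out 1 array gave 0 to 0 calls for 6 h against IL-3, 6 h against 2 h and 24 h against 6 h, and 0 to 12 for 24 h against IL-3. The cause was not tested, except that fits of fewer arrays have fewer degrees of freedom. No member was called at 2 h or for ASXL1-MT under any alternative. One change reversed: Snrpc at 24 h against 6 h, 0.50 with the mean of its probe sets. Quantile normalization moved the median of all genes at 24 h to -0.03, against 0.09, and the members' median relative to it was -0.34 with and without it; the step from 2 to 6 h then had 11 members lower and 0 higher. The vector term pairs the arrays of a culture, so the fit without it is the unpaired one; the labels give no other pairing.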
